A study of Homo sapiens with 24 samples.

Results

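The clade B serpins on the long arm of human chromosome 18 are 10 neighbouring genes, and the acetylation of histone H3 on lysine 27 (H3K27Ac) was described along them in 2 mammary epithelial lines with and without knockdown of ANCO1. In chromosome order the members were SERPINB5, SERPINB12, SERPINB13, SERPINB4, SERPINB3, SERPINB11, SERPINB7, SERPINB2, SERPINB10 and SERPINB8. A region was taken as part of the cluster when the authors' annotation named a member, which it does out to 10 kb from a gene, or when it overlapped no gene and lay in the chromosome interval that holds all 10. This gave 93 of the 171345 regions listed over 6 deposited tables, with 28 of 50284 in the 10A comparison of shANCO1 with shCTRL and 14 of 44790 in the DCIS comparison.

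H3K27Ac ChIP-seq pulls down chromatin with an antibody to a mark found at active promoters and enhancers, and the input is a part of the same sheared chromatin kept aside without antibody. The 24 libraries formed 8 groups of 3, crossing 10A or DCIS cells, shANCO1 or shCTRL, and H3K27Ac or input. 10A (MCF10A) is an immortalized, non-tumorigenic mammary epithelial line, and DCIS (MCFDCIS) is a line of the same lineage used as a model of early triple-negative ductal carcinoma in situ. shANCO1 is a hairpin against ANCO1, the product of ANKRD11, and shCTRL is a control hairpin against GFP. Both hairpins came in by lentiviral infection, so every group is an infected and puromycin-selected population. The tables compare whole groups and hold no value per library, so the depth and the spread between replicates are unknown, and the false discovery rate (FDR) of the authors' csaw test over each whole table is the only measure of error. Nothing in the labels tells separate cultures from repeat preparations, so that FDR may measure technical spread. A log2 fold change of 1 is a 2-fold difference. With an enriched region within 10 kb as the measure, the basal markers KRT5, KRT6A and TP63 and the epithelial markers CDH1, EPCAM and KRT18 were marked in all 4 groups, and KRT14 in none. Of the markers of other cells, PGR, PTPRC and CD3E were marked in no group, and ESR1 and SPI1 in all 4.

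Clade B serpins are intracellular protease inhibitors that trap their target by a conformational change after cleavage of an exposed loop. SERPINB5 (maspin) lacks this inhibitory change and is known as an epithelial gene that is often lost in breast carcinoma. SERPINB2 (plasminogen activator inhibitor type 2) acts on urokinase, and SERPINB8 acts on furin. SERPINB3 and SERPINB4 (the squamous cell carcinoma antigens) and SERPINB13 (headpin) act on cathepsins. SERPINB7 (megsin), SERPINB12 (yukopin) and SERPINB11 (epipin) are expressed in epithelia, and SERPINB10 (bomapin) in blood-forming cells.

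**Figure D1:**
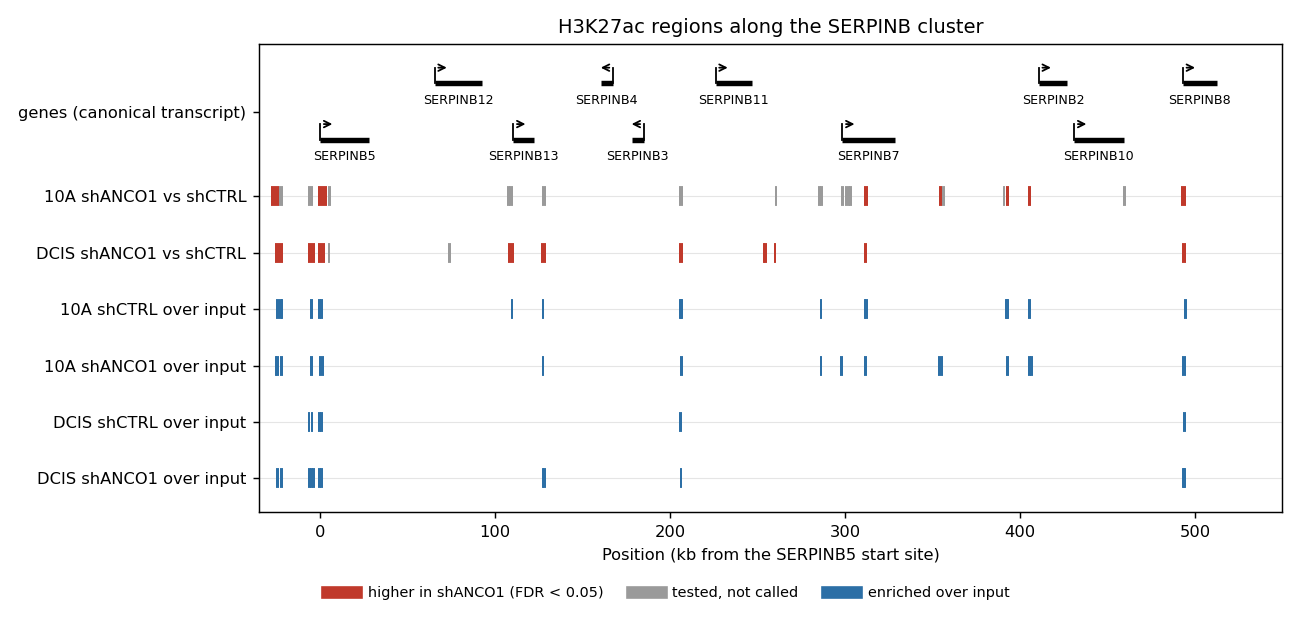
Map of the cluster, with position in kb from the SERPINB5 start site. Black bars are the canonical transcripts of the 10 genes with arrows at their start sites, red and grey blocks are the regions tested between shANCO1 and shCTRL, and blue blocks are the regions enriched over input (blocks narrower than 1.5 kb are drawn at 1.5 kb). SERPINB3 and SERPINB4 lie in a stretch with no block in any track, and no DCIS track has a block beside SERPINB2 or SERPINB10.

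H3K27Ac was higher in shANCO1 than in shCTRL at regions of the cluster in both lines, and no cluster region was called lower in either. In 10A cells 9 of 28 cluster regions rose (32.1%), where 43.6% of all regions of the table rose and 0.225% fell. In DCIS cells 12 of 14 rose (85.7%), where 23.6% of all regions rose and 4.86% fell. The cluster thus stood below its table's background in 10A cells and above it in DCIS cells, although neighbouring regions are not independent and the difference between the lines was not tested.

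Sizes followed the same order. The median log2 fold change of the cluster in 10A cells was 0.64, against 0.76 over all regions and 0.73 over chromosome 18, and 10 of 28 regions lay above the median of all regions. The median in DCIS cells was 1.48, against 0.52 over all regions and 0.59 over chromosome 18, and all 14 regions lay above the median of all regions. The range ran from -0.66 to 1.66 in 10A cells and from 0.53 to 2.22 in DCIS cells. By windows, the short stretches that csaw tests before merging them into regions, 109 of 346 windows (31.5%) of the cluster were up in 10A cells against 36.6% of all windows, and 131 of 221 (59.3%) in DCIS cells against 17.5%. The zero of these fold changes rests on a normalization that the sources used here do not give, and with each table's own median as zero the cluster's median was -0.13 in 10A cells and 0.95 in DCIS cells.

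**Figure D2:**
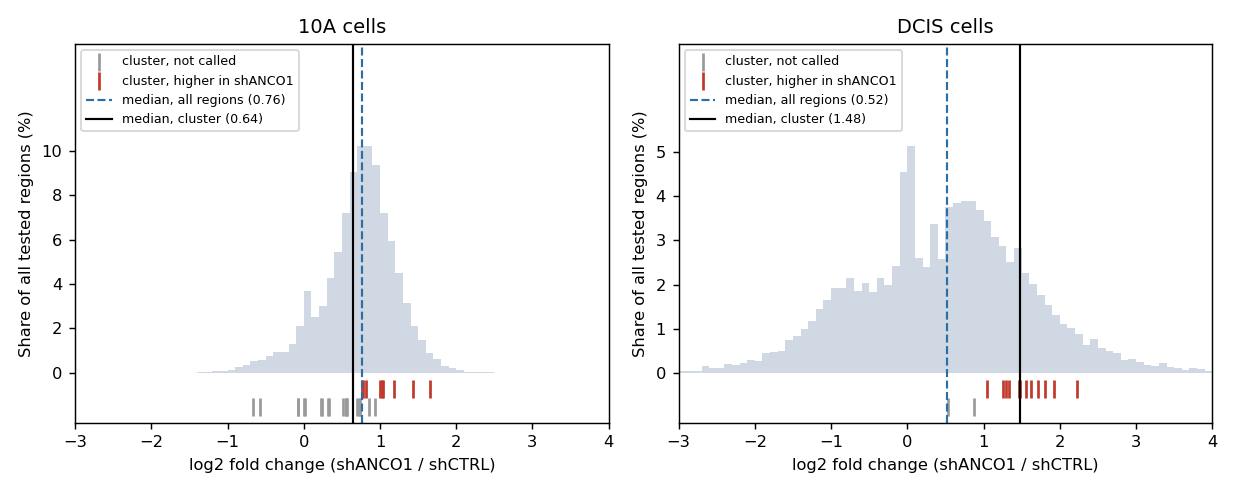
Distribution of the log2 fold change of shANCO1 over shCTRL for all tested regions (bars, % of the table per 0.1 units) with the cluster regions as ticks under it, red where FDR was under 0.05. The solid line is the median of the cluster (0.64 in 10A, 1.48 in DCIS) and the dashed line the median of all regions (0.76 and 0.52), so the solid line is left of the dashed one in 10A cells and right of it in DCIS cells.

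The regions were then placed along the chromosome, with distances taken from the canonical GENCODE start site of each gene. Regions of the 6 tables that shared a base were joined into 28 stretches, of which 25 held a region tested in 10A cells and 14 a region tested in DCIS cells. Of the 11 stretches tested in both lines, 4 rose in both and 1 was called in neither. Another 6 rose in DCIS cells and were not called in 10A cells, and 0 rose in 10A cells alone. A stretch counted as rising when at least 1 of its regions was called. The same split was not counted outside the cluster, so it has no background here. A further 14 stretches were tested in 10A cells alone and 3 in DCIS cells alone. Why a table does not list a stretch was not tested.

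**Figure D3:**
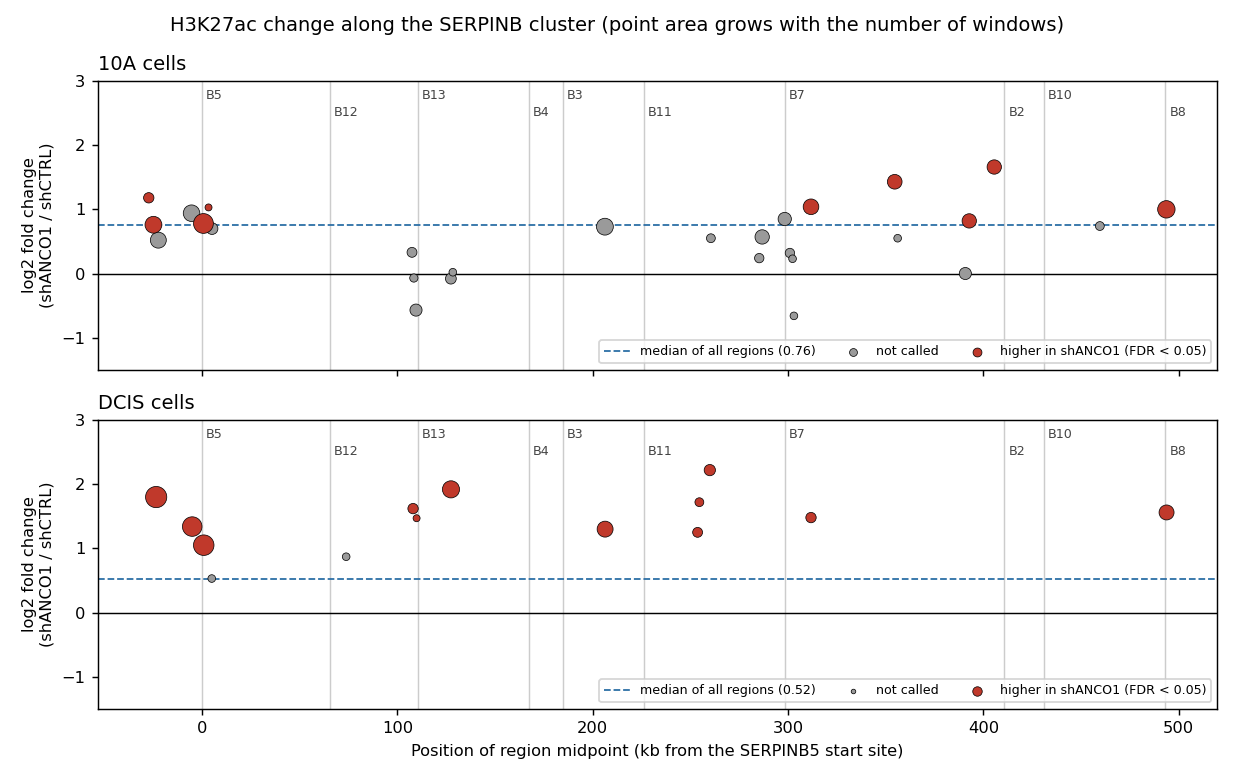
The log2 fold change of shANCO1 over shCTRL for each cluster region at its midpoint, in kb from the SERPINB5 start site, with grey vertical lines at the start sites (SERPIN is left out of the names) and point area growing with the number of windows. Red points passed FDR 0.05. In 10A cells the red points lie at the SERPINB5 end and from the SERPINB7 intron to SERPINB8, with the SERPINB13 points between -0.57 and 0.33, and in DCIS cells they run from upstream of SERPINB5 to the SERPINB7 intron and again at SERPINB8.

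SERPINB5 carried the mark at its start site in all 4 groups. The region over the start site rose in 10A cells by a log2 fold change of 0.78 (chr18:63475701-63479700, FDR 0.00284, 18 of 36 windows up) and in DCIS cells by 1.05 (chr18:63475801-63479900, FDR 0.0499, 7 of 39 windows up). The DCIS value is the one called region closest to the threshold. Enrichment over input of the start-site region was 3.83 in 10A shCTRL, 3.60 in 10A shANCO1, 5.43 in DCIS shCTRL and 4.98 in DCIS shANCO1 on the log2 scale. A separate region 0.3 kb before the start site had 2.99 in 10A shCTRL, 7.06 in DCIS shCTRL and 7.78 in DCIS shANCO1. In 10A shANCO1 a single region covered both places. The plot of fold over input by stretch shows 7.78 for DCIS shANCO1 here, as that region had the lower FDR. The 4 groups were each compared with input and not with one another, and the normalization is not given in the sources used here. The order of their values was therefore not read as a change. Both lines had a marked maspin promoter with the control hairpin. The 120 bases before the start site (chr18:63476838-63476957, plus strand, RefSeq promoter table of GRCh38.p14) are shown because this was the one start site of the cluster with an enriched region within 1 kb in every group.

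SERPINB5 promoter: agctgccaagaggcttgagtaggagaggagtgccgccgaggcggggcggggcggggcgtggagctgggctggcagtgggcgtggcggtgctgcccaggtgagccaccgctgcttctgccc

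Inside the first kilobases of the SERPINB5 gene, a small intronic region rose in 10A cells by 1.03 (chr18:63480201-63480400, FDR 0.0212) on the strength of 1 window. The next intronic region was called in neither line, with 0.70 in 10A cells (FDR 0.226) and 0.53 in DCIS cells (FDR 0.767).

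Upstream of SERPINB5 lay the stretch with the lowest FDR of the cluster in DCIS cells. It spanned chr18:63451201-63455800, 21.2 kb before the start site and between genes, and rose by 1.80 (FDR 2.17e-05), with 41 of 42 windows up. In 10A cells the same stretch was split into a region that rose by 0.76 (chr18:63450801-63453400, FDR 0.0128) and one at 0.52 that was not called (chr18:63453301-63455900, FDR 0.0774). DCIS shCTRL listed no enrichment over input in this stretch, whereas DCIS shANCO1 had 4.60, 10A shCTRL 3.09 and 10A shANCO1 4.47. The stretch was thus marked in 10A cells with either hairpin and in DCIS cells with shANCO1.

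A second upstream region, 3.2 kb before the SERPINB5 start site, rose in DCIS cells by 1.34 (chr18:63470101-63473800, FDR 0.00316, 9 of 35 windows up). In 10A cells it stood at 0.94 and was not called (chr18:63470201-63473000, FDR 0.145, 0 of 24 windows up). It held the highest fold over input of the cluster in both DCIS groups, 7.59 with shCTRL and 7.98 with shANCO1, against 4.95 and 3.81 in 10A cells. The region was thus strongly marked in DCIS cells with the control hairpin and called higher with shANCO1.

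The far left end of the cluster shaded into its neighbours. The first cluster region in 10A cells, 26.9 kb before SERPINB5, rose by 1.18 (chr18:63449301-63450100, FDR 0.0104). The nearest region outside lay 3.1 kb farther out in 10A cells, with 1.00 (FDR 0.000338), and 5.1 kb from the first DCIS cluster region, with 2.64 (FDR 1.94e-08). Those outside regions named no gene, and their log2 fold changes were of the size of the members just inside or above it. At the other end the last cluster region was that at SERPINB8, and the next tested region was 1688.4 kb away in 10A cells (0.11, FDR 0.826) and 2538.2 kb away in DCIS cells (0.00, FDR 0.998).

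SERPINB12, an inhibitor of trypsin-like proteases, had 1 tested region in all. It lay in an intron, 8.2 kb past the start site, and was seen in DCIS cells at 0.87 without a call (chr18:63550601-63550900, FDR 0.169). No group was enriched over input there.

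SERPINB13 rose in DCIS cells and was called nowhere in 10A cells. Its 3 DCIS regions all rose, by 1.62 at 1.9 kb before the start site (chr18:63584601-63585400, FDR 0.01), by 1.47 at 0.4 kb before it (chr18:63586701-63586900, FDR 0.0165, 1 window) and by 1.92 at 15.6 kb past it (chr18:63602901-63605900, FDR 4.13e-05, 25 of 26 windows up). Its 5 10A regions lay between -0.57 and 0.33, and none was called. The region just before the start site was at -0.57 in 10A cells (chr18:63585901-63587100, FDR 0.373, 0 of 11 windows up). The 2 lines were not tested against each other, and the median over all regions was 0.76 in 10A cells and 0.52 in DCIS cells.

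The right-hand SERPINB13 region overlaps an exon by the authors' annotation. In GENCODE the gene span ends at 63604639, inside the region, while the canonical transcript ends at 63599192, so it lies past the canonical gene. Enrichment over input there was 3.87 in 10A shCTRL, 6.83 in 10A shANCO1 and 7.64 in DCIS shANCO1, and DCIS shCTRL listed none. The direct comparison in 10A cells gave -0.08 (chr18:63603901-63604800, FDR 0.921) beside a fold over input that was larger with shANCO1. How each comparison was normalized is not given in the sources used here, and the cause of this difference was not tested. At the start site itself the mark was listed in 10A shCTRL alone, with 4.18 over input.

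SERPINB4 and SERPINB3 were named by no region of any table. They are a near-identical tandem pair on the minus strand, and how reads that match both copies were counted is not given in the sources used here, so values at this pair would be uncertain. The promoters of both are shown because of that likeness. They come from the RefSeq table of GRCh38.p14, run on the minus strand over chr18:63661894-63662143 for SERPINB3 and chr18:63644257-63644506 for SERPINB4, and the capitals mark the 3 bases of 250 at which they differ (98.8% identical).

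SERPINB3 promoter: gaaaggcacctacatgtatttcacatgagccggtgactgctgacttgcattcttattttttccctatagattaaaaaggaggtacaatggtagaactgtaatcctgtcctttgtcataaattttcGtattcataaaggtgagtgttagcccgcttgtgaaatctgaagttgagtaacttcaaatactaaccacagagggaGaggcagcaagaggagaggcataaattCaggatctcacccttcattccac
SERPINB4 promoter: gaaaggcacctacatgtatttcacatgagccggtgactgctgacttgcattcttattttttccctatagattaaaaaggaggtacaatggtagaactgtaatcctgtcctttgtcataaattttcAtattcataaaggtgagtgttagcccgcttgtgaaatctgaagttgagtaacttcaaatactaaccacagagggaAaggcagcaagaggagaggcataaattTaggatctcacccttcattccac

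Over the 5 kb around the start site, 1568 of the 4952 words of 50 bases at SERPINB3 (31.7%) also occurred around the start site of another member, and the share at SERPINB4 was the same. At SERPINB5 and SERPINB7 the count was 0. The part of these shared bases in the absence of SERPINB3 and SERPINB4 regions was not tested, and the absence is a statement about the tables and not about the genes.

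The nearest marked stretch to SERPINB3 was named for SERPINB11 by the authors. It lay 20.1 kb upstream of the SERPINB3 start site and 18.4 kb upstream of the SERPINB11 start site, inside the GENCODE span of the SERPINB11 gene but between the canonical transcripts of both. It rose in DCIS cells by 1.30 (chr18:63682001-63684600, FDR 0.00247, 16 of 22 windows up) and stood at 0.73 in 10A cells, just outside the threshold (chr18:63681901-63684500, FDR 0.0787, 1 of 25 windows up). This was 1 of 4 stretches enriched over input in all 4 groups, with 3.41 in 10A shCTRL, 3.84 in 10A shANCO1, 3.34 in DCIS shCTRL and 5.54 in DCIS shANCO1.

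SERPINB11 had a run of regions past its 3' end that rose in DCIS cells. They lay 27.3, 28.3 and 33.2 kb past its start site, toward SERPINB7, and rose by 1.25 (chr18:63730301-63731000, FDR 0.0318), 1.72 (chr18:63731301-63731800, FDR 0.00218) and 2.22 (chr18:63736201-63737600, FDR 9.2e-05, 9 of 9 windows up). The last is the largest fold change of the cluster in either line. 10A cells had 1 region that overlapped the last of them, at 0.55 without a call (chr18:63737201-63737700, FDR 0.581). No group passed the input comparison in this run, so these DCIS gains were seen between the hairpins without a listed peak over input.

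SERPINB7 had 7 regions in 10A cells and 1 in DCIS cells. The intronic region 12.2 kb past its start site rose in 10A cells by 1.04 (chr18:63787601-63789800, FDR 0.000448, 13 of 21 windows up), which is the lowest FDR of the cluster in that line. It rose in DCIS cells by 1.48 (chr18:63788201-63789200, FDR 0.00837, 6 of 7 windows up). Over input it was listed in both 10A groups, with 4.20 for shCTRL and 4.16 for shANCO1, and in neither DCIS group.

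The SERPINB7 start-site region was at 0.85 in 10A cells and just missed the threshold (chr18:63774401-63776100, FDR 0.0685, 8 of 14 windows up). It was listed over input in 10A shANCO1 alone, with 3.79, and no DCIS table listed it. Another SERPINB7 region, 10.8 kb before the canonical start site and inside a longer transcript, held the highest fold over input of the cluster in both 10A groups, with 6.75 in shCTRL and 6.83 in shANCO1, equalled by the SERPINB13 region in the second, and its difference between the hairpins was 0.57 without a call (FDR 0.769). The other 4 regions of the gene in 10A cells lay between -0.66 and 0.32 with no call, and -0.66 was the lowest value of the cluster.

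SERPINB2 was marked and changed in 10A cells and had no region in any DCIS table. The region 4.2 kb before its start site rose by 1.66 (chr18:63881501-63883500, FDR 0.00225, 4 of 17 windows up), the largest fold change of the cluster in 10A cells. Over input it was 3.70 with shCTRL and 4.62 with shANCO1. A region that named no gene lay 55.1 kb past the SERPINB7 start site and 55.1 kb before that of SERPINB2. It rose by 1.43 (chr18:63830501-63832600, FDR 0.000702, 17 of 18 windows up). It was listed over input in 10A shANCO1, with 5.10, and not in 10A shCTRL.

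The region 17.1 kb before SERPINB2 also rose, by 0.82 (FDR 0.00163, 10 of 17 windows up), near the 10A median of 0.76 over all regions. The one beside it, 19.4 kb before the start site, stood at 0.00 (chr18:63867101-63868300, FDR 0.996). The region 17.1 kb before the gene was listed over input with both hairpins, at 3.9 with shCTRL and 3.18 with shANCO1. No region lay within 1 kb of the SERPINB2 start site in either line, so the gains were not measured at its canonical promoter. The GENCODE span of the gene starts at 63871692, so the region 4.2 kb before the canonical start site lies inside that span and the other 2 that rose lie before it.

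SERPINB10 had 1 region, 28.3 kb past its start site and beyond its end, at 0.74 in 10A cells without a call (chr18:63936301-63936800, FDR 0.1), and none over input.

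SERPINB8, at the right-hand end, rose at its start site in both lines. The region rose by 1.00 in 10A cells (chr18:63969201-63972000, FDR 0.00411, 19 of 27 windows up) and by 1.56 in DCIS cells (chr18:63969601-63971800, FDR 0.0312, 5 of 19 windows up). Over input the stretch had 3.32 in 10A shCTRL, 5.35 in 10A shANCO1, 4.15 in DCIS shCTRL and 4.90 in DCIS shANCO1. A start-site region was tested at 4 of the 10 members in 10A cells and at 3 in DCIS cells. Of the members tested in both lines, SERPINB5 and SERPINB8, which flank the cluster, rose in both, and SERPINB13 rose in DCIS cells alone. The same was not counted at other genes.

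Enrichment over input was then compared along the whole cluster. All listed regions of the input tables were enriched, so being listed and being called are the same thing there (100% of the regions of each table, with 2 of 15482 missing the threshold in DCIS shCTRL). Cluster regions numbered 17 in 10A shCTRL, 16 in 10A shANCO1, 6 in DCIS shCTRL and 12 in DCIS shANCO1. They covered 7.4 kb, 17.1 kb, 3.5 kb and 9.3 kb in the same order, so the covered length was larger with shANCO1 in each line. Over the whole tables, regions numbered 15490, 28607, 15482 and 16692, and over chromosome 18 the covered length was 214.2 kb, 561.8 kb, 190.6 kb and 193.7 kb. The larger length in 10A shANCO1 was thus shared by the whole chromosome, whereas in DCIS cells chromosome 18 as a whole differed little between the hairpins. The median log2 fold over input was 3.41, 4, 4.79 and 4.94, beside 3.32, 3.40, 4.09 and 4.47 over all regions of the same tables.

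By stretch, 11 were enriched in 10A shCTRL and 12 in 10A shANCO1, of which 10 were the same. In DCIS cells 4 were enriched with shCTRL and 6 with shANCO1, and the 4 were among the 6. The 2 listed in DCIS cells with shANCO1 alone were the stretch 21.2 kb before SERPINB5 and the one past the SERPINB13 gene. Both were enriched in 10A cells with either hairpin. In the other direction, 4 stretches were enriched in both 10A groups and in neither DCIS group, and these were the upstream and intronic SERPINB7 stretches and the pair before SERPINB2. Of the regions that rose, 6 of 9 in 10A cells overlapped a region enriched in shCTRL and 7 of 9 one enriched in shANCO1, and in DCIS cells these counts were 4 of 12 and 6 of 12. Of the regions not called in 10A cells, 6 of 19 overlapped a region enriched in shCTRL and 6 of 19 one enriched in shANCO1, not all of them the same. In DCIS cells 0 of 2 overlapped one with either hairpin. The tables share their immunoprecipitated libraries, so these overlaps describe the same data. Neither the overlaps nor the split of stretches between groups was counted outside the cluster, so they have no background here.

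**Figure D4:**
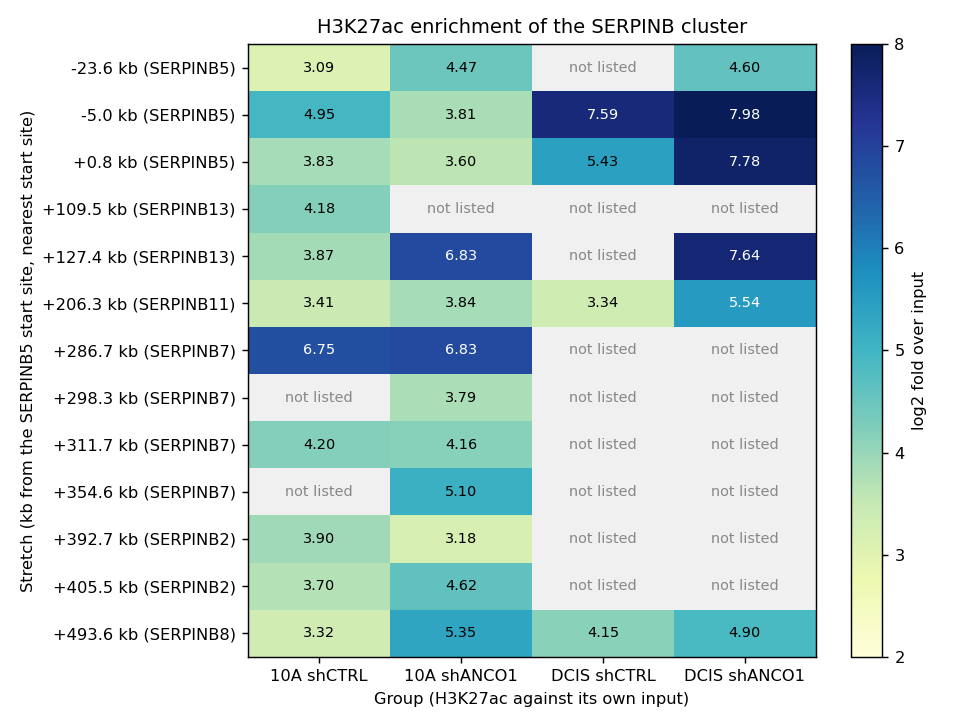
Log2 fold over input at the 13 stretches enriched in at least 1 group, for each of the 4 groups, with the stretch given by its midpoint in kb from the SERPINB5 start site and its nearest start site. Each cell is the region with the lowest FDR in that stretch, and grey cells are stretches a table does not list. The SERPINB7 and SERPINB2 rows are filled in 10A shANCO1 and empty in both DCIS groups, with 2 of the SERPINB7 rows (+298.3 and +354.6 kb) empty in 10A shCTRL as well, and the rows at -23.6 and +127.4 kb are filled in DCIS shANCO1 and empty in DCIS shCTRL.

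The regions were read for the letters of 2 motifs on either strand, TGACTCA (AP-1, the FOS and JUN dimer) and GGAATG (TEAD, the partner of YAP). Within the 500 bases at the midpoint, 8 of 28 cluster regions in 10A cells held the AP-1 letters (28.6%, against 18.3% of all regions) and 3 of 14 in DCIS cells (21.4%, against 15.4%). Over the whole region the shares were 46.4% against 30.6% and 57.1% against 25.8%. Places per kb were 0.408 against 0.310 in 10A cells and 0.394 against 0.279 in DCIS cells. For the TEAD letters the midpoint shares were 25% against 27.9% in 10A cells and 21.4% against 27.1% in DCIS cells. Over the whole region the TEAD shares were 35.7% against 48.8% and 50% against 45.1%, so in DCIS cells the side of the background changed with the measure. TEAD places per kb were 0.459 against 0.644 and 0.551 against 0.801. The cluster counts are small and a match is not a binding site.

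Places in regions that rose are shown with 20 bases on each side on the plus strand of GRCh38. Those in the start-site regions of SERPINB5 and SERPINB8 and past the SERPINB13 gene are left out. The rest mark where the same letters lie in gains of one line and of both. Capitals are the AP-1 letters, read as TGAGTCA where the motif is on the minus strand.

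26.9 kb before SERPINB5, rose in 10A, chr18:63449582-63449628: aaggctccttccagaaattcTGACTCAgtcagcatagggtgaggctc
21.2 kb before SERPINB5, rose in DCIS, chr18:63454672-63454718: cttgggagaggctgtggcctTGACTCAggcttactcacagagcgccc
3.2 kb before SERPINB5, rose in DCIS, chr18:63470881-63470927: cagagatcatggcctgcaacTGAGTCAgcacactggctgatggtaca
3.2 kb before SERPINB5, rose in DCIS, chr18:63472242-63472288: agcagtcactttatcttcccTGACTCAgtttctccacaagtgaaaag
1.9 kb before SERPINB13, rose in DCIS, chr18:63585220-63585266: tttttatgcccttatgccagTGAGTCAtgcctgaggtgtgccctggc
33.2 kb past the SERPINB11 start site, rose in DCIS, chr18:63736940-63736986: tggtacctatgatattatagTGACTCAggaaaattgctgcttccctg
SERPINB7 intron, rose in both lines, chr18:63788633-63788679: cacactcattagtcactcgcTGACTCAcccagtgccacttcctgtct
55.1 kb before SERPINB2, rose in 10A, chr18:63832428-63832474: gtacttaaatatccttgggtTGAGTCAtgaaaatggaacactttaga
4.2 kb before SERPINB2, rose in 10A, chr18:63881715-63881761: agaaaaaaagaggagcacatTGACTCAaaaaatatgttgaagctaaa
4.2 kb before SERPINB2, rose in 10A, chr18:63882736-63882782: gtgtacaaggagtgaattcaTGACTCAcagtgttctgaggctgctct

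The places left out lay in the SERPINB5 and SERPINB8 start-site regions, which rose in both lines, and in the region past the SERPINB13 gene, which rose in DCIS cells. Regions that were not called held the letters too, among them the SERPINB13 regions in 10A cells at -0.07 and -0.08, so the letters alone did not separate the regions that rose. In the RefSeq promoter set, 8 of the 10 members had an entry, with 11 promoters of 250 bases before the start site. The AP-1 letters stood in 4 of these 11, against 1738 of all 35116 promoters (4.95%), and the 3 genes were SERPINB13 (87 bases upstream), SERPINB7 (39 and 45 bases upstream of 2 of its start sites) and SERPINB8 (28 bases upstream). The TEAD letters stood in 2 of the 11, against 14.0% of all promoters, and these were the near-identical promoters of SERPINB3 and SERPINB4.

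A list of 13 genes held proteases, some of them known targets of these serpins, and the urokinase receptor. In 10A cells 20 of its 29 regions rose and 0 fell, with a median of 0.95, and 7 of the 8 genes with a region had one that rose. In DCIS cells 15 of 48 rose and 0 fell, with a median of 1.03, and 7 of 10 genes had one that rose. The share of genes with a region that rose was not counted outside this list, so these gene counts have no background here. By lowest FDR, PLAU (urokinase, the target of SERPINB2) rose by 1.34 in 10A cells (FDR 8.97e-06) and by 3.47 in DCIS cells (FDR 2.87e-09). SERPINB2 itself had no listed region in DCIS cells to set beside it, and why none was listed was not tested. FURIN, the target of SERPINB8, rose by 1.06 in 10A cells (FDR 0.000811) and stood at 1.06 in DCIS cells without a call (FDR 0.0969).

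Among the cathepsins, CTSB rose by 1.60 in 10A cells (FDR 1.18e-06) and 2.18 in DCIS cells (FDR 4.02e-08), and CTSL rose by 1.70 in 10A cells (FDR 9.53e-06) and 2.33 in DCIS cells (FDR 0.000224). KLK7, a kallikrein of the epidermis, rose by 1.93 in DCIS cells (FDR 4.66e-06) and had no region in 10A cells. PLG, CTSK and CTSG had no region in either line. The shares of this list that rose, 69% in 10A cells and 31.2% in DCIS cells, stand beside the same backgrounds of 43.6% and 23.6%. CTSB alone held 7 of the regions that rose in 10A cells.

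The other clade B serpins, SERPINB1, SERPINB6 and SERPINB9 on chromosome 6, gave 4 of 8 regions that rose in 10A cells (median 0.93) and 1 of 4 in DCIS cells (median 0.95). SERPINB9, the granzyme B inhibitor, rose by 1.38 in 10A cells (FDR 9.55e-06) and by 1.23 in DCIS cells (FDR 0.0494). SERPINB6 rose by 1.56 in 10A cells (FDR 1.88e-05) and stood at 1.22 in DCIS cells (FDR 0.0954). SERPINB1 rose by 0.94 in 10A cells (FDR 0.00996) and stood at 0.69 in DCIS cells (FDR 0.523). The shares of regions that rose, 50% in 10A cells and 25% in DCIS cells, were near the backgrounds of 43.6% and 23.6%.

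The genes next to the cluster, BCL2, KDSR, VPS4B, HMSD and CDH7, had 8 of 9 regions that rose in 10A cells (median 1.00) and 2 of 7 in DCIS cells (median 0.68). These shares were 88.9% beside a background of 43.6% in 10A cells and 28.6% beside 23.6% in DCIS cells. VPS4B, the nearest gene to the left, rose by 1.41 in 10A cells (FDR 0.000362) and by 2.91 in DCIS cells (FDR 1.53e-11). The region shared by BCL2 and KDSR rose by 1.12 in 10A cells (FDR 0.00275) and stood at -0.53 in DCIS cells (FDR 0.425). The HMSD region is the one at SERPINB8, which is counted in both lists, and CDH7 had none.

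**Figure D5:**
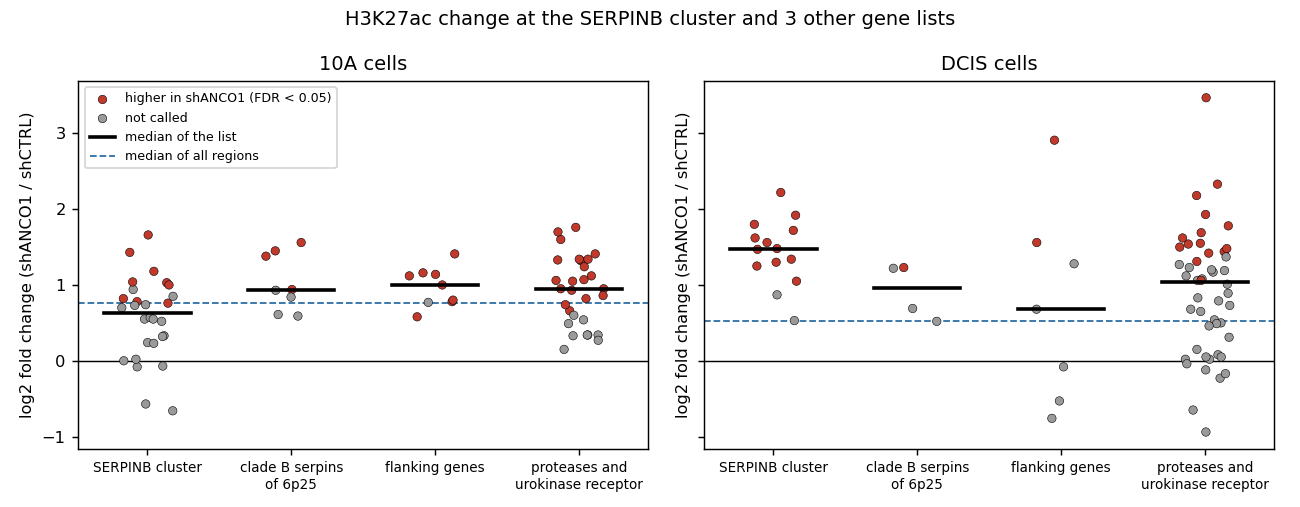
Log2 fold change of shANCO1 over shCTRL for every region of the cluster and of the 3 comparison lists in 10A and DCIS cells, with red points for FDR under 0.05, a black bar at the median of each list and a dashed line at the median of all regions (points are spread sideways for sight). The cluster's bar is the lowest of the 4 in 10A cells (0.64) and the highest in DCIS cells (1.48).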

How the data were processed

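The study profiled H3K27Ac in 24 libraries, 3 in each of 8 groups. Per the methods, BWA and Rsubread placed the reads on GRCh38, samtools took out duplicates, csaw tested binding and ChIPpeakAnno gave gene names. Normalization, window filter and merging are not given in the sources used here. Each deposited log2 value, computed by the authors, comes from 1 representative window per region, and the deposited p-value and FDR cover all regions of a table. The deposited window numbers, which are not reads, give the tested, up and down windows of a region. Regions spanned 200 to 5100 bp.

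Cluster regions named 1 of the 10 members or lay between genes on chromosome 18 from 63450000 to 64020000. FDR under 0.05 counted as changed, in the authors' direction, and no further test was run. All 10 members were described by the region at the start site (within 1000 bp of the start of a protein-coding transcript of the basic set, GENCODE release 44) and the region of lowest FDR, with the 5 cluster regions of lowest FDR per line and at most 4 genes of each other list in order of FDR. The members and lists were chosen with earlier results of these data known, and the marker genes of cell types after the regions were seen. A further gene of the protease list entered no count and is not reported here. Overlap was at least 1 bp. Counting functions were tested on simulated data. Python 3.11.15, pandas 2.3.3 and numpy 2.4.6 were used.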

Additional observations from a re-analysis of the deposited data

How the results depend on the processing

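Across 51 alternatives to 21 results, 37 left the value on its side of the threshold and within its limits. In 10A cells the 9 cluster regions that rose became 5 when a log2 value of 1 or more in size was required, and 2 when 0.5 past the median of all regions was. The 10A median of 0.64 became -0.13 after subtracting the median of all regions, which turns its sign, and 0.78 over windows. The SERPINB7 value of 0.85, not called at the start site, became 1.04 and called at the region of lowest FDR over the gene. In DCIS cells the 12 regions that rose became 7 at FDR under 0.01, and the median of 1.48 became 0.95 after subtracting the median of all regions. Asking for overlap of at least 50% of a region took the regions that rose over enriched ones from 6 to 0 in 10A shCTRL, from 6 to 3 in DCIS shANCO1 and from 4 to 0 in DCIS shCTRL, since enriched regions are narrower. The DCIS share with the AP-1 letters went from 21.4% to 57.1% over whole regions, as longer sequence was read. With at least 5 windows, enriched regions went from 16 to 9 in 10A shANCO1, from 17 to 2 in 10A shCTRL and from 6 to 2 in DCIS shCTRL. Counting joined stretches once, chosen after seeing the data, gave 9 and 12 again. For the other changes the cause was not tested.

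No paired analysis was possible because the tables hold 1 line per region for whole groups, and for the same reason no fit without 1 library was run. The depth is unknown.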
